A study of Mus musculus with 6 samples.

Results

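The transcripts examined here encode 8 subunits or enzymes of the mitochondrial tricarboxylic acid (TCA) cycle, Cs, Idh3a, Idh3b, Ogdh, Suclg1, Sdha, Fh1 and Mdh2, together with Acod1, the enzyme that draws an intermediate of the cycle off to itaconate. These 9 genes were taken by name, each as its most counted RefSeq transcript row, out of 24445 genes in the table. The rule that picks their rows uses no measured value other than this total, but the genes were chosen with earlier results of these data known.

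The study asked what loss of ATP citrate lyase (Acly) does to gene expression in macrophages activated by IL-4. Bone marrow-derived macrophages (BMDMs) are cells grown from marrow precursors, here for 7 days in L929-conditioned medium. All 6 libraries came from cells of female C57Bl/6J mice that had received 100 U/mL IL-4 for 24 h, and cells without IL-4 were not analysed here. Both groups carried floxed Acly alleles with loxP sites around exon 9. The AclyM-KO group (3 libraries) also carried Cre recombinase under the Lyz2 promoter, which is active in myeloid cells, and the Ctrl group (3 libraries) came from Acly fl/fl littermates. The replicates are called biological in the study's statistics but technical, from pooled mice, in a legend, so the p-values measure the spread between libraries and may not cover that between mice.

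The TCA cycle oxidises acetyl-CoA to carbon dioxide in the mitochondrial matrix and passes the electrons to the respiratory chain. Citrate that leaves the cycle for the cytosol is the substrate of ATP citrate lyase, which splits it into acetyl-CoA and oxaloacetate, so the enzyme missing in AclyM-KO cells uses a product of the cycle. Macrophages activated by IL-4 are known for an intact, oxidative cycle. Macrophages activated by bacterial products instead induce Acod1, which decarboxylates cis-aconitate to itaconate, a metabolite that inhibits succinate dehydrogenase.

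Raw read counts were deposited for each transcript. The kept rows held 12151975 to 14739689 counts per Ctrl library and 14745614 to 15587283 counts per AclyM-KO library. Levels are given in CPM, which are counts scaled to the TMM-adjusted library size, and differences as log2 fold changes of AclyM-KO over Ctrl from edgeR's quasi-likelihood test over 12023 genes, with Benjamini-Hochberg adjusted p-values over all of them. Acly, the targeted gene, had 334 ± 14.4 CPM in Ctrl and 138 ± 6.63 CPM in AclyM-KO (SD, n = 3), and its log2 fold change of -1.27 (adjusted p = 5.22e-10) goes with the labels. The macrophage markers Adgre1, Csf1r, Cd68, Itgam, Lyz2, Mertk and Fcgr1 were all detected and together reached 13370 to 14680 CPM in Ctrl and 11060 to 11510 CPM in AclyM-KO. Lyz2, the gene whose promoter drives Cre, fell from 6595 to 4142 CPM. Without Lyz2 the other 6 summed to 7247 to 7561 CPM in Ctrl and 6946 to 7310 CPM in AclyM-KO. Of the 7 markers, 1 passed the test as higher and 4 as lower. Adgre1 rose by 0.33 on the log2 scale (adjusted p = 2.27e-05). Besides Lyz2, Mertk (-0.73, adjusted p = 2.56e-07), Itgam (-0.28, 0.00113) and Csf1r (-0.20, 0.00366) fell. Neutrophil markers summed to 17.1 to 19.3 CPM in Ctrl and 24.8 to 26.6 CPM in AclyM-KO, with S100a8 and S100a9 the 2 that passed the test. Lymphocyte markers summed to 2.62 to 3.18 and 1.64 to 2.19 CPM. Most of that sum was Cd79b, which fell from 2.56 to 1.335 CPM (log2 fold change -0.93, adjusted p = 0.0138). Dendritic cell markers lay between 3.04 and 4.25 CPM in both groups and fibroblast markers stayed at or under 1.30 CPM. The part of these shifts in the results below was not tested, and in bulk RNA fewer cells of a type cannot be told apart from less RNA per cell.

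The transcripts of the cycle enzymes and of Acod1 differed little between AclyM-KO and Ctrl macrophages. Mdh2 and Sdha were higher in AclyM-KO, by 13.2% and 10.2%, and the other 7 genes did not pass the test. These 2 of 9 genes are 22.2%, against 24.9% of all genes tested that had an adjusted p under 0.05 in either direction and 12.4% that were higher. No member was called lower, against 12.6% of all genes, although Idh3a was in 4 of 16 alternatives (library totals, no filter on low counts, and without Ctrl replicate 2 or AclyM-KO replicate 2). None of the 9 passed the adjusted p together with the study's fold limit of 0.58 on the log2 scale, which 5.55% of all genes did. The median log2 fold change of the members was 0.08, beside 0.0014 over all genes tested, and 7 of the 9 estimates lay above 0. Together the 8 cycle enzymes took 0.110% to 0.112% of the counts in Ctrl and 0.115% to 0.116% in AclyM-KO. The CPM values of the groups did not overlap for 5 members (Cs, Idh3a, Ogdh, Sdha and Mdh2), a pattern that 40.2% of all genes tested showed.

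**Figure D1:**
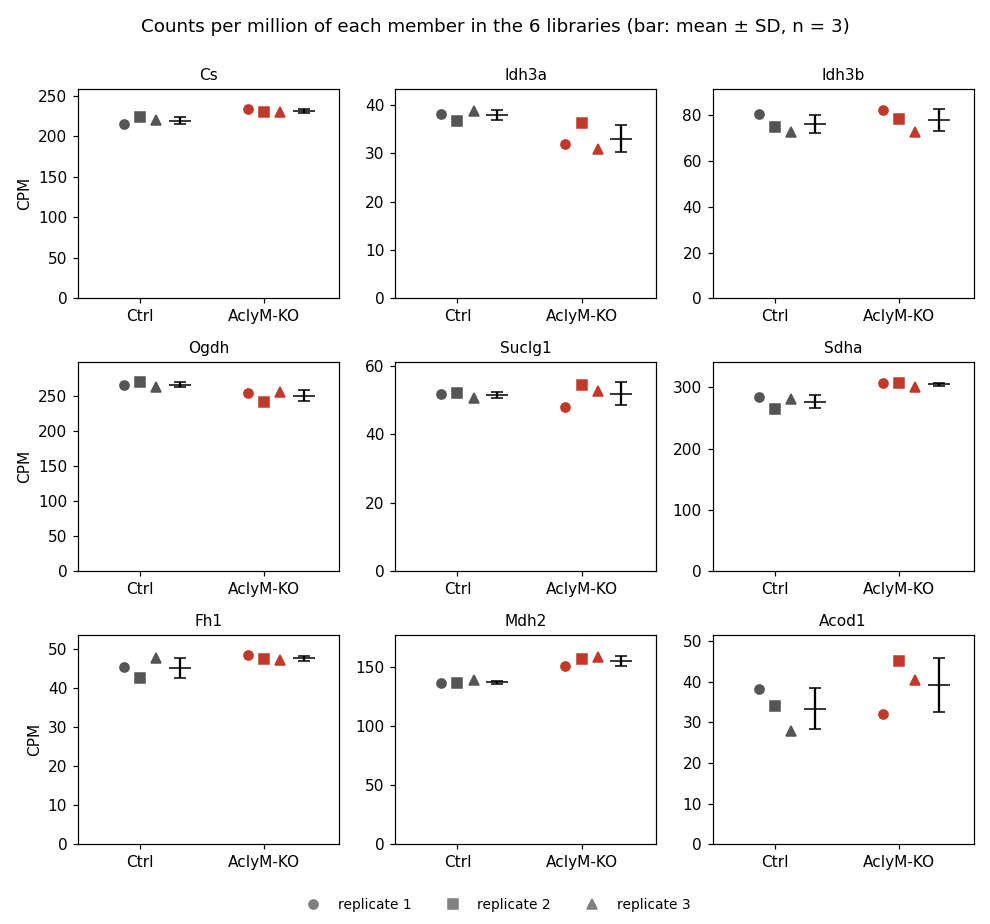
CPM of each member (y axis, from 0) in the Ctrl libraries (grey) and the AclyM-KO libraries (red). Symbols mark the replicate numbers and the black bars give the mean ± SD of 3 libraries. Mdh2 runs from 136 to 138 CPM in Ctrl and from 150.2 to 158 CPM in AclyM-KO, while the Acod1 values of the groups interleave.

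Citrate synthase (Cs) condenses acetyl-CoA with oxaloacetate and so opens the cycle. Its gene lies on the plus strand of chromosome 10 (GRCm38, 128337734 to 128362479) and the kept transcript has 11 exons. Cs was measured at 215, 223 and 219 CPM in Ctrl and at 233, 229 and 230.2 CPM in AclyM-KO. All AclyM-KO values thus stood above all Ctrl values, by a small margin. The log2 fold change was 0.08 (95% interval -0.02 to 0.17, edgeR adjusted p = 0.247), and an exact two-sided permutation test gave p = 0.10, the smallest that 3 against 3 libraries allow. An increase beyond 12.8% lies outside this interval.

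Idh3a and Idh3b encode the catalytic and a regulatory subunit of the NAD-dependent isocitrate dehydrogenase, which makes 2-oxoglutarate from isocitrate. Idh3a (chromosome 9, plus strand, 54586511 to 54604661) was at 38.0, 36.7 and 38.7 CPM in Ctrl and at 31.9, 36.2 and 30.8 CPM in AclyM-KO. Every AclyM-KO library was below every Ctrl library, although AclyM-KO replicate 2 came close to the lowest Ctrl value. The difference of -0.20 on the log2 scale (interval -0.35 to -0.04) had an adjusted p of 0.0629 in edgeR and did not pass the threshold. Idh3b (chromosome 2, minus strand, 130279309 to 130284547) was at 80.3, 74.7 and 72.8 CPM in Ctrl and at 82.2, 78.1 and 72.7 CPM in AclyM-KO. The Idh3b groups overlapped almost completely, with a log2 fold change of 0.03 (interval -0.09 to 0.16). As a ratio of per-length levels within each library, Idh3a over Idh3b was 0.336 ± 0.0201 in Ctrl and 0.286 ± 0.0251 in AclyM-KO (SD, n = 3), without overlap (exact permutation p = 0.10). Against Idh3g, the other regulatory subunit, the Idh3a ratio was 0.349 in Ctrl and 0.298 in AclyM-KO, and there the libraries overlapped. How often ratios of other gene pairs separate was not tested, for these ratios or those below. Among single genes 40.2% did.

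Ogdh is the first component of the 2-oxoglutarate dehydrogenase complex, which forms succinyl-CoA. It lies on the plus strand of chromosome 11 (6291633 to 6356642), and its kept row is the highest of 5 transcript rows. The Ctrl libraries had 266, 270.1 and 263 CPM, and the AclyM-KO libraries 255, 242 and 256 CPM. The AclyM-KO values were the lower ones throughout, but the difference of -0.09 (interval -0.19 to 0.01, edgeR adjusted p = 0.196) did not pass the test. Dld, the dehydrogenase component that this complex shares with pyruvate dehydrogenase, rose from 112 ± 5.05 to 125 ± 1.71 CPM (log2 fold change 0.15, adjusted p = 0.0417). That call for Dld held in 7 of 16 alternative analyses. Dlst, the component that carries the succinyl group, had 116 CPM in Ctrl and 122 CPM in AclyM-KO (adjusted p = 0.285). Per length, Ogdh stood at 1.54 ± 0.0114 times Dlst in Ctrl and at 1.38 ± 0.0127 times in AclyM-KO, and at 1.46 and 1.24 times Dld. Neither ratio overlapped between the groups (exact permutation p = 0.10 for each), a separation that 40.2% of single genes also showed.

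Suclg1 encodes the subunit common to both forms of succinyl-CoA ligase, which turns succinyl-CoA into succinate. From its locus on chromosome 6 (plus strand, 73248382 to 73276911) it gave 51.7, 52.1 and 50.5 CPM in Ctrl and 48.0, 54.5 and 52.8 CPM in AclyM-KO. The AclyM-KO libraries lay on both sides of the Ctrl libraries. Its log2 fold change of 0.01 (interval -0.12 to 0.14) leaves room for a change of at most about 10.2% upwards or 7.97% downwards. Sucla2 and Suclg2, the partners that set the ATP and the GTP form of the ligase, had log2 fold changes of 0.10 and 0.01 and did not pass the test either.

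Sdha is the catalytic flavoprotein of succinate dehydrogenase, the one enzyme that serves both the cycle and the respiratory chain. Its gene is on the minus strand of chromosome 13 (74322254 to 74350280, 15 exons). Sdha was measured at 284, 265 and 280.4 CPM in Ctrl and at 307, 306 and 301 CPM in AclyM-KO. All AclyM-KO libraries were above all Ctrl libraries, and they lay closer together than the Ctrl libraries did. Sdha rose by 0.14 on the log2 scale (interval 0.04 to 0.24, edgeR adjusted p = 0.04). The call was narrow and was lost in 8 of 16 alternatives, among them the removal of any library other than Ctrl 1, with an adjusted p of up to 0.13.

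Of the remaining subunits of succinate dehydrogenase 1 passed the test, in the opposite direction to Sdha. Sdhb, the iron-sulfur subunit, was at 91.1 ± 4.79 and 99.2 ± 1.504 CPM (log2 fold change 0.12, adjusted p = 0.101), and Sdhc, a membrane anchor, at 127 and 132 CPM (0.06, adjusted p = 0.443). Sdhd, the other anchor, fell from 105 ± 8.54 to 92.7 ± 2.55 CPM (log2 fold change -0.18, adjusted p = 0.033), and this call held in 11 of 16 alternatives. The per-length ratio of Sdha to Sdhd was 1.08, 1.17 and 1.11 in Ctrl and 1.37, 1.44 and 1.38 in AclyM-KO. The ratio was therefore higher in every AclyM-KO library, whereas that of Sdha to Sdhb, 1.20 and 1.21 on average, overlapped between the groups. None of the 4 assembly factors Sdhaf1, Sdhaf2, Sdhaf3 and Sdhaf4 passed the test.

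Fh1 encodes fumarase, which hydrates fumarate to malate. From chromosome 1 (minus strand, 175600374 to 175625635) it gave 45.4, 42.6 and 47.7 CPM in Ctrl and 48.4, 47.6 and 47.2 CPM in AclyM-KO. The highest Ctrl library was above the lowest 2 AclyM-KO libraries, and the log2 fold change was 0.08 (interval -0.05 to 0.21, edgeR adjusted p = 0.388).

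Mdh2, the mitochondrial malate dehydrogenase, closes the cycle by regenerating oxaloacetate and also takes part in the malate-aspartate shuttle. Its gene lies on the plus strand of chromosome 5 (135778480 to 135790391) and has 9 exons. The Ctrl libraries had 136, 136 and 138 CPM, and the AclyM-KO libraries 150.2, 156 and 158 CPM. Every AclyM-KO library was well above the highest Ctrl library. Mdh2 rose by 0.18 on the log2 scale (interval 0.08 to 0.28, edgeR adjusted p = 0.0126), the member with the smallest p. This call held in 14 of 16 alternatives and was lost without AclyM-KO replicate 2 (adjusted p = 0.063) or replicate 3 (0.0641). The 3 genes closest to Mdh2 over the 6 libraries were Gosr2, Emc3 and Mindy2, with root mean square differences of 0.0138, 0.0191 and 0.0204 in centred log2 CPM, where the Mdh2 values themselves varied by 0.0924.

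Acod1, also known as Irg1, was detected in every library without an inflammatory stimulus. Its gene lies on the plus strand of chromosome 14 (103046977 to 103056573) and has 5 exons. It gave 566, 416 and 369 reads in Ctrl and 471, 702 and 591 reads in AclyM-KO. On the CPM scale these were 38.2, 34.0 and 28.0 in Ctrl, and 32.1, 45.2 and 40.5 in AclyM-KO. The groups overlapped, since AclyM-KO replicate 1 lay below Ctrl replicates 1 and 2. The means were 33.4 ± 5.14 and 39.3 ± 6.60 CPM (SD, n = 3), with a log2 fold change of 0.23 and a 95% interval of -0.02 to 0.48 (edgeR adjusted p = 0.168, exact permutation p = 0.30). The data thus leave room for no change and for an increase of up to 39.4%. Over the removal of single libraries the estimate lay between 0.11 and 0.36, and the adjusted p was 0.0351 without AclyM-KO replicate 1. Without the filter on low counts it was 0.022, but that setting moved the adjusted p of other genes widely too, for Acly from 5.22e-10 to 9.69e-114.

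Acod1 was the member that varied most among libraries of a group. Its within-group SD of log2 CPM was 0.24, higher than in 99.2% of the 2452 tested genes with a mean CPM within 1.5-fold of its own, whose median was 0.09. Idh3a, with a like number of reads, had an SD of 0.09 (50.2% of its like genes were lower), and Cs one of 0.02 (4.0%). Counting error alone amounts to 4.39% for Acod1 at its mean of 519 reads, against coefficients of variation of 15.4% in Ctrl and 16.8% in AclyM-KO.

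The level of Acod1 moved across the libraries with the share of counts that fell on rows without a gene name, a share that differed between libraries of the same group. This share was 1.38%, 0.747% and 0.370% in Ctrl and 0.389%, 1.36% and 1.34% in AclyM-KO. A single row without a name made up 65.0% to 91.0% of these counts, the most in the libraries with the larger share. The 3 libraries with the larger share, Ctrl 1 and AclyM-KO 2 and 3, had Acod1 at 38.2, 45.2 and 40.5 CPM, and the other 3 had it at 28.0 to 34.0 CPM. Mdh2 instead separated by group, at 136 CPM in the Ctrl library with the largest share and at 150.2 CPM in the AclyM-KO library with the smallest share. Within AclyM-KO, however, Mdh2 was also higher in replicates 2 and 3, at 156 and 158 CPM. In Ctrl the highest Mdh2 value, 138 CPM, fell in the library with the smallest share. With the log2 share as a covariate, an analysis added after seeing the data, the Acod1 log2 fold change was 0.16 (edgeR adjusted p = 0.125), and Sdha and Mdh2 remained at 0.14 (0.0441) and 0.17 (0.0182). What sets this share was not tested. The genes closest to Acod1 over the 6 libraries were Pet100, Lncpint and Tgtp2, with root mean square differences of 0.0531, 0.0566 and 0.0757 in centred log2 CPM, against 0.226 for Acod1 itself. Their own mean levels were low, at 9.65, 2.30 and 1.385 CPM, where counting error is large. They were picked as the nearest of all genes tested, and the likeness was not tested.

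**Figure D2:**
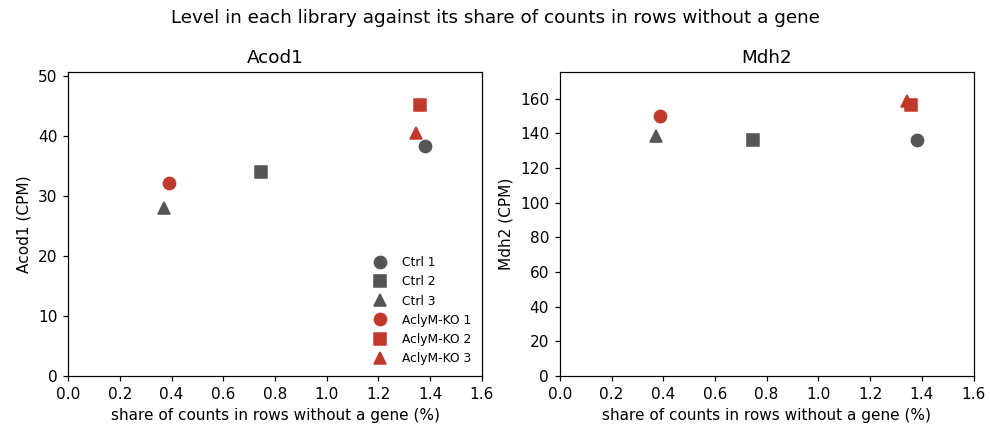
CPM of Acod1 (left) and Mdh2 (right) in each library (y axes, from 0) against the percentage of that library's counts in rows without a gene (x axis). Grey symbols are Ctrl and red ones AclyM-KO libraries. Acod1 is highest, 38.2 to 45.2 CPM, in the 3 libraries with a share of 1.34% to 1.38%, while Mdh2 separates by group.

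Of 6 genes that break down itaconate or respond to it, none passed the test, against 24.9% of all genes. Sugct, which couples the dicarboxylates to coenzyme A, ran from 4.40 to 14.1 CPM in Ctrl and from 4.23 to 17.3 CPM in AclyM-KO, and like Acod1 it was highest in Ctrl 1 and AclyM-KO 2 and 3. Clybl, the last enzyme of itaconate breakdown, had a log2 fold change of -0.26 (adjusted p = 0.105). Nfe2l2 and its inhibitor Keap1 differed by -0.03 and -0.003 on the log2 scale, and Atf3 by 0.09. Nfkbiz, at 1.99 and 3.17 CPM, had the largest estimate of this list, 0.67, with an adjusted p of 0.0731.

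Among 10 genes that macrophages induce together with Acod1 on inflammatory activation, 8 had enough counts to be tested. None of the 8 passed, against 24.9% of all genes, but most of them had few counts, so the 2 shares cannot be compared. Irf1, the highest of the list, was at 126 and 127 CPM (log2 fold change 0.02, interval -0.14 to 0.17). Nos2, the inducible nitric oxide synthase, was at 1.52 and 1.07 CPM, and Ptgs2, the inducible cyclooxygenase, at 1.65 and 1.96 CPM. Tnf was at 7.45 ± 1.32 and 8.75 ± 2.19 CPM. Il1b was the one member of this list with an unadjusted p under 0.05, at 1.49 and 0.886 CPM (log2 fold change -0.74, adjusted p = 0.11). The 8 log2 fold changes ranged from -0.74 to 0.36, with a median of 0.21.

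Scaled to transcript length, the members spanned a wide range. In Ctrl, Sdha and Mdh2 led with 95.3 ± 3.60 and 94.0 ± 0.887 CPM per kb and overlapped. Cs followed with 74.9, Ogdh with 64.5, Idh3b with 47.0 and Suclg1 with 33.9 CPM per kb. Fh1, Idh3a and Acod1 were lowest with 17.2, 15.7 and 12.7 CPM per kb, and each of the last 7 genes was separated from the one above it in all Ctrl libraries. In AclyM-KO the order was the same apart from the ends. Mdh2 (106 CPM per kb) and Sdha (105) changed places within their overlap, and Acod1 (15.0 ± 2.52) stood above Idh3a (13.7 ± 1.17), again with overlap. Per length, Acod1 amounted to 0.170 ± 0.0280 times Cs in Ctrl and to 0.190 ± 0.0336 times Cs in AclyM-KO, and the 2 ranges overlapped.

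**Figure D3:**
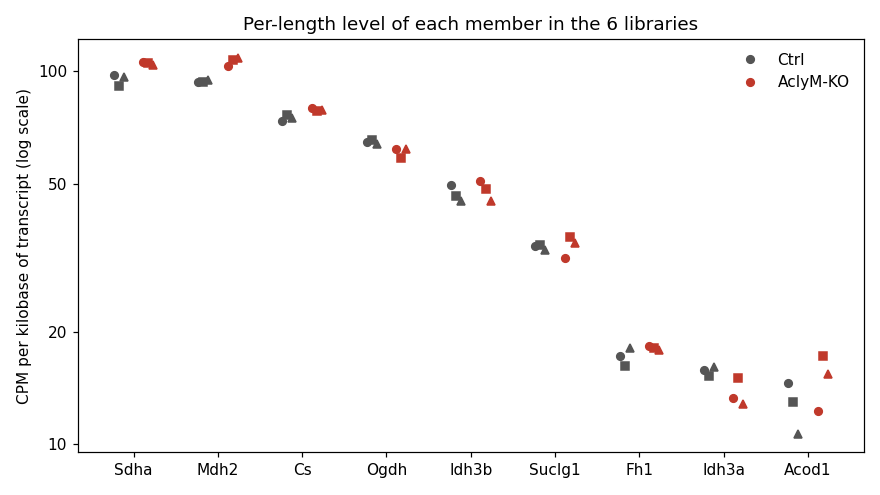
CPM per kilobase of transcript (y axis, log scale) of each member in the 6 libraries, ordered by the Ctrl mean. Grey symbols are Ctrl and red ones AclyM-KO libraries, with 1 symbol shape per replicate number. Levels fall from 95.3 for Sdha to 12.7 for Acod1 in Ctrl, and only Sdha with Mdh2 and Idh3a with Acod1 change places in AclyM-KO.

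RefSeq promoter windows (GRCm38.p6, 250 bases before to 50 bases after the transcript start) were found for 8 of the 9 members, all but Idh3a. Those of Mdh2 and Sdha, the 2 genes that rose together, and that of Acod1 are shown 5′ to 3′ on the strand of the gene. Capitals mark GC boxes (GGGCGG) and CCAAT boxes (CCAAT) on either strand in Mdh2 and Sdha, and only the TATA box (TATAAA) in Acod1, whose window also holds 1 CCAAT box.
Mdh2, chr5:135778399-135778698, plus strand: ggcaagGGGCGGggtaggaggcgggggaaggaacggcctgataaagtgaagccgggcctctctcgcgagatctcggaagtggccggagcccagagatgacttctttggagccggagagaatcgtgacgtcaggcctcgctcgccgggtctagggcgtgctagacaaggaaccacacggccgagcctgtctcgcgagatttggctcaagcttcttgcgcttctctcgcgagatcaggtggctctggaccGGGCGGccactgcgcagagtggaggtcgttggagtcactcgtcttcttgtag
Sdha, chr13:74350191-74350490, minus strand: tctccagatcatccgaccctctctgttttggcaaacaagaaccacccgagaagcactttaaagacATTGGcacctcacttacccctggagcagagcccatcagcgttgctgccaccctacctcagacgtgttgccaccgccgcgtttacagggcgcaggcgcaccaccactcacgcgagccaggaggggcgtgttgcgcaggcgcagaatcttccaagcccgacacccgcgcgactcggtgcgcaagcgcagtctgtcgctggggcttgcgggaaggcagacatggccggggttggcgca
Acod1, chr14:103046762-103047061, plus strand: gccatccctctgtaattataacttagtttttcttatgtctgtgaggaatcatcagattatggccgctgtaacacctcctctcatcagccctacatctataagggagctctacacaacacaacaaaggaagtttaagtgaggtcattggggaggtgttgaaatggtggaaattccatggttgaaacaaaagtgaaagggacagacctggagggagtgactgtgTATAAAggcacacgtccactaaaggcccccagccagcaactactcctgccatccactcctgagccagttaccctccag
The Mdh2 window holds 2 GC boxes and no CCAAT box, and the Sdha window 1 CCAAT box and no GC box, so the 2 genes share neither. At least 1 GC box occurs in 35.7% and at least 1 CCAAT box in 37.4% of 32851 promoter windows of this length. The Acod1 window is of another kind, with 2 CpG dinucleotides, where the Mdh2 and Sdha windows have 27 and 25 and the median window has 7. Only 14.1% of all windows have fewer CpG dinucleotides than that of Acod1, and those of the other members with an entry have 11 to 37. Acod1 is also the one member whose window holds TATAAA, which 13.6% of all windows do. A STAT6 motif (TTCNNNNGAA), the type bound by the main transcription factor of IL-4 signalling, was found in the windows of Fh1 and Idh3b and in 6.95% of all windows. Such matches describe the letters in the window and show no binding.

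Among genes around the cycle, some changes were larger than that of any member, although most of the other cycle subunits also differed little. The gene lists above and below were chosen with earlier results of these data known. Their shares of genes that passed are given as a description and cannot be read as an excess over all genes. Of the 10 other subunits of cycle enzymes tested, 2 passed (Dld higher, Sdhd lower), and their median log2 fold change was 0.07. Idh2, the NADP-dependent isocitrate dehydrogenase, had a log2 fold change of -0.03. Of 10 assembly and lipoylation factors 1 passed, Fdx2 (log2 fold change 0.33, adjusted p = 0.049), whose exons all lie under other genes on the same strand, so its counts are uncertain. The Fdx2 call held in 6 of 16 alternatives, and without Ctrl replicate 3 its log2 fold change was 0.19 (adjusted p = 0.217).

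Of 12 tested genes that govern the entry of pyruvate into the cycle, 5 changed (41.7%, against 24.9% of all genes), 3 upwards and 2 downwards, with a median log2 fold change of 0.06 over the list. Pdk1, a kinase that inactivates pyruvate dehydrogenase, fell from 92.1, 111 and 109.7 CPM in Ctrl to 56.1, 70.3 and 58.6 CPM in AclyM-KO. The groups were far apart, and the log2 fold change was -0.75 (interval -0.93 to -0.58, edgeR adjusted p = 9.48e-06). Pdk2, a second kinase of this kind, fell from 14.3 ± 1.71 to 8.68 ± 0.554 CPM (log2 fold change -0.73, adjusted p = 0.000448). Pdk3 had a log2 fold change of -0.24 that did not pass (adjusted p = 0.054), and Pdk4 had no count in any library.

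The phosphatases that reverse this inactivation went the other way. Pdp1 rose from 80.2 ± 5.42 to 104 ± 2.92 CPM (log2 fold change 0.37, edgeR adjusted p = 0.000185). Pdp2 rose from 24.9 ± 2.82 to 35.8 ± 0.968 CPM (0.52, adjusted p = 0.000304). Pdha1, the subunit that the kinases and phosphatases act on, rose by 0.19 (adjusted p = 0.0134). The per-length ratio of Pdk1 to Pdp1 was 0.915, 1.21 and 1.05 in Ctrl and 0.429, 0.543 and 0.472 in AclyM-KO, without overlap (exact permutation p = 0.10). Pdhb, Dlat and Pdhx, further subunits of the complex, and the pyruvate carriers Mpc1 and Mpc2 did not pass. Pdk1 and Pdk2 were the 2 genes of this list beyond the fold limit.

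**Figure D4:**
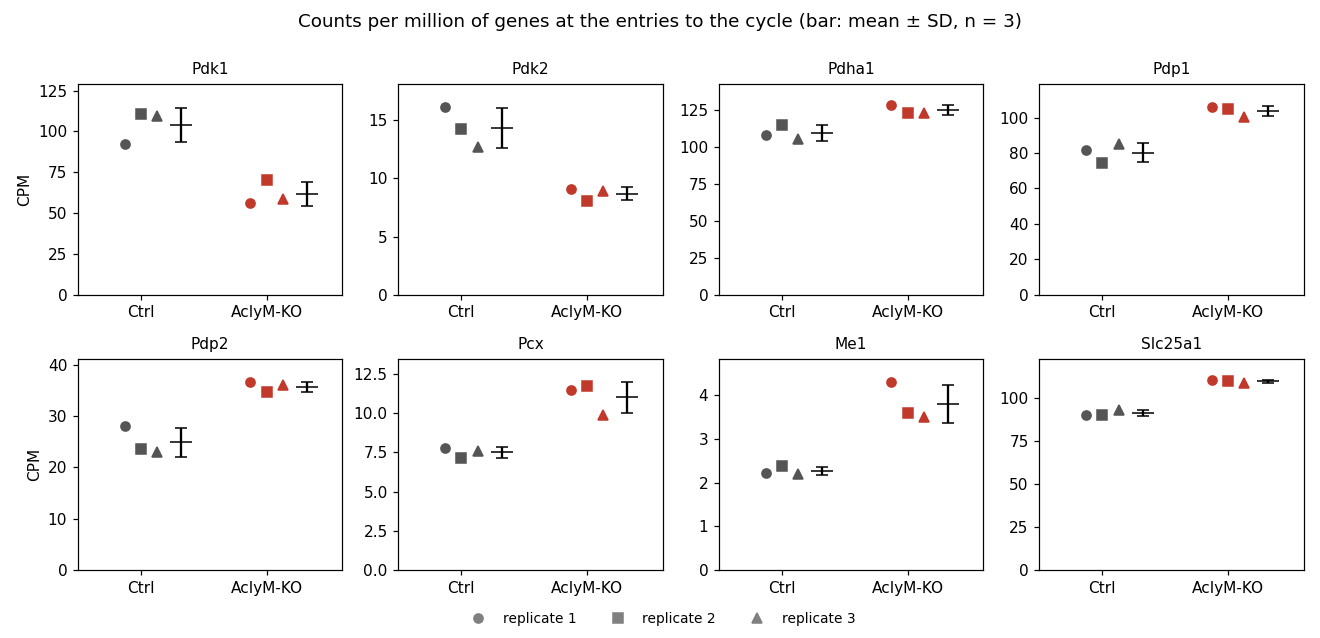
CPM (y axes, from 0) of 8 genes around the cycle in the Ctrl (grey) and AclyM-KO (red) libraries. Black bars give the mean ± SD of 3 libraries and symbols the replicate numbers. The 8 were picked among genes that passed the test, and genes of the same lists that did not pass are not shown. Pdk1 and Pdk2 are lower and the other 6 genes higher in every AclyM-KO library than in any Ctrl library. Such separation was shown by 40.2% of all genes tested.

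Anaplerosis is the supply of carbon to the cycle other than through acetyl-CoA. Of its 7 tested genes 5 changed (71.4%, against 24.9% of all genes), 3 upwards and 2 downwards, with a median of 0.10. This list, too, was chosen with earlier results known. Pcx, the pyruvate carboxylase that makes oxaloacetate, rose from 7.49 ± 0.338 to 11.01 ± 0.999 CPM (log2 fold change 0.55, edgeR adjusted p = 0.00475). Glud1, which turns glutamate into 2-oxoglutarate, rose from 287 ± 4.13 to 349 ± 7.02 CPM (0.28, adjusted p = 0.000285). Both genes were higher in every AclyM-KO library than in any Ctrl library, a separation that 40.2% of all genes tested showed. Gpt2, the mitochondrial alanine aminotransferase, fell from 47.0 ± 5.85 to 34.0 ± 2.47 CPM (-0.46, adjusted p = 0.00118), and Pck2, which draws oxaloacetate off to phosphoenolpyruvate, fell by 0.23 (adjusted p = 0.0438) in a call that held in 8 of 16 alternatives. The mitochondrial aspartate aminotransferase Got2 had a log2 fold change of -0.19 (adjusted p = 0.0555).

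Of 5 cytosolic counterparts of mitochondrial enzymes 2 changed (40.0%), and of 5 carriers 3 did (60.0%), against 24.9% of all genes. The first count was 1 without AclyM-KO replicate 1 or 2, and the carrier count was 1 without Ctrl replicate 3 or AclyM-KO replicate 1 and 2 with DESeq2, where Slc25a12 did not pass (adjusted p = 0.0757). Me1, the malic enzyme that makes NADPH and pyruvate from malate, rose from 2.27 ± 0.0916 to 3.80 ± 0.436 CPM (log2 fold change 0.74, edgeR adjusted p = 0.0154). Got1 fell by 0.19 (adjusted p = 0.0184), and Aco1, Idh1 and Mdh1 did not pass, with log2 fold changes of 0.08, 0.10 and 0.04. The cytosolic Mdh1 estimate had an interval of -0.07 to 0.14, beside the 0.08 to 0.28 of its mitochondrial counterpart Mdh2, and the difference between them was not tested. Slc25a1, the carrier that exports citrate to the cytosol where Acly acts, rose from 90.0, 90.3 and 93.1 CPM to 111, 109.9 and 109 CPM (0.27, adjusted p = 0.000734). The aspartate-glutamate carriers Slc25a12 and Slc25a13 fell by 0.22 and 0.24 (adjusted p = 0.0346 and 0.0137), and the dicarboxylate and oxoglutarate carriers Slc25a10 and Slc25a11 did not pass.

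**Figure D5:**
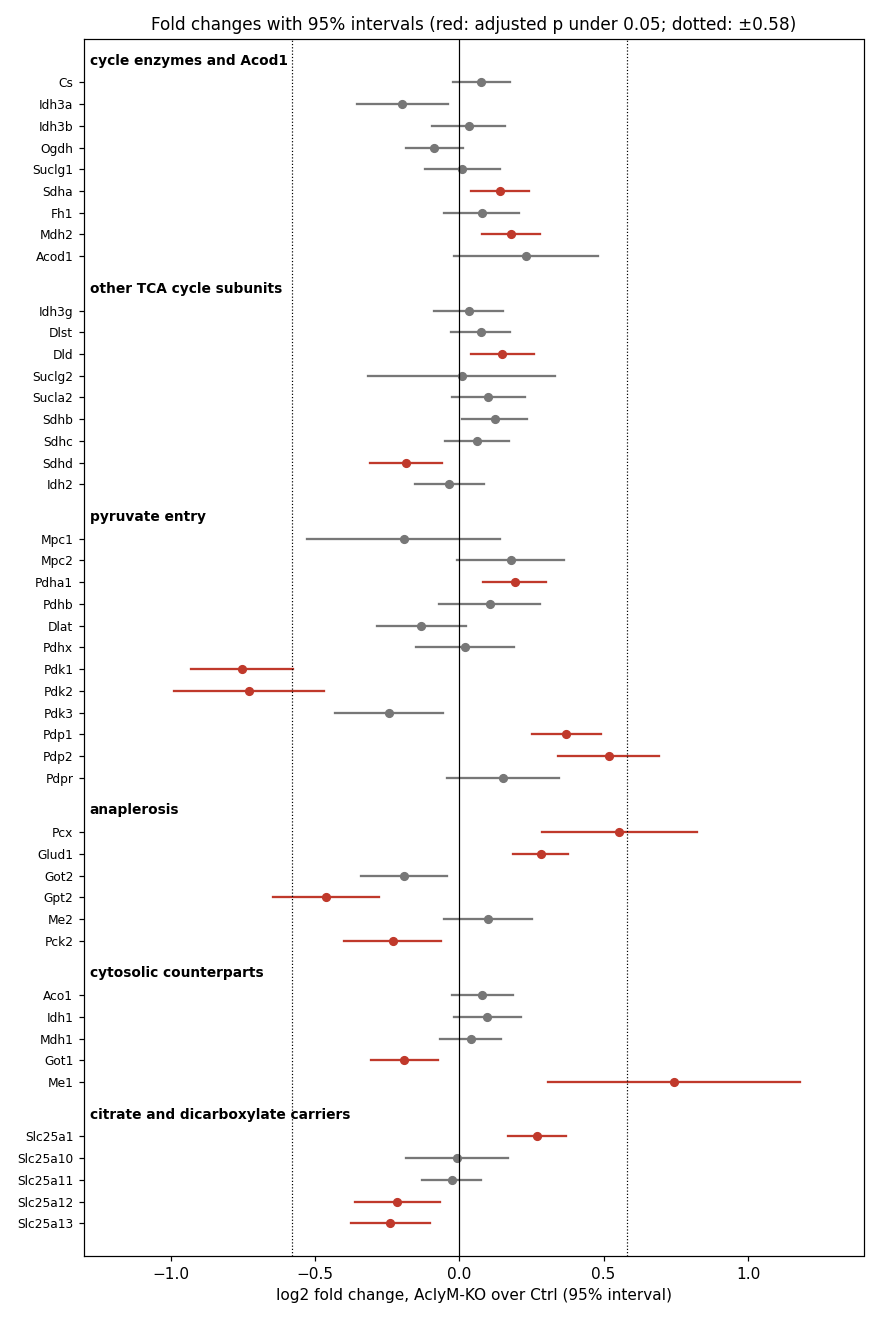
Log2 fold change of AclyM-KO over Ctrl (x axis) with its 95% interval for the cycle enzymes and Acod1 (top) and for tested genes of 5 further groups. Red marks an adjusted p under 0.05 and dotted lines the limit of 0.58. The cycle enzymes lie between -0.20 and 0.18, while Pdk1, Pdk2 and Me1 lie beyond the dotted lines.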

How the data were processed

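Per the study's methods, stranded mRNA libraries were sequenced and STAR 2.5.2b aligned them to mm10. The authors deposited unnormalized read counts by RefSeq transcript. CASAVA 1.8.2 is also named in the submitters' processing notes, and the counting program is not given in the sources used here. The 35745 rows were paired with gene symbols through RefSeq (35440 rows) and GENCODE M21 (188 rows). The 117 rows without a gene held 0.370% to 1.38% of the counts and entered neither library sizes nor tests. The row with the highest total was kept for each of 24445 genes, so that each gene entered once. How reads shared by isoforms were counted is not given.

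The test was edgeR 4.0.16's quasi-likelihood fit (R 4.3.3) after filterByExpr and TMM, with genotype as the single term. The common biological coefficient of variation was 0.0588. The procedure was also run on simulated data, with changes larger than the estimate of any member. That run cannot show how well changes of the members' size are found. Exact permutation tests were two-sided, on CPM. Transcript lengths and positions came from GENCODE M21 on GRCm38, and no transcript of another gene matched a member at 95% identity over 100 bases or more (blastn 2.17.0). Alternatives were DESeq2 1.42.0, which the study used, limma 3.58.1 (voom), other scalings, filters and fold limits, the mean of a gene's rows, a replicate block, a covariate and the removal of each library. The members and gene lists were chosen with earlier results of these data known. All members, list genes and Acly may be named, together with the 3 genes nearest in pattern to Acod1 and to the other member with the smallest p. Results for some single genes of the lists are not reported here. Nothing says that replicate numbers pair libraries. Within a group, libraries differed beyond counting noise (chi-square per gene of 2.32 to 7.55).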

Additional observations from a re-analysis of the deposited data

How the results depend on the processing

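Depth and spread limit what can be seen in the members: the 95% intervals of the 8 cycle enzymes span -0.35 to 0.28 on the log2 scale, and that of Acod1 reaches 0.48. The number of members with an adjusted p under 0.05 was 2. It was 3 with no filter on low counts (Idh3a, Mdh2 and Acod1), 1 with a replicate block, in which Mdh2 passed and Sdha did not (adjusted p = 0.0846), and 0 to 2 when each library was left out. The 0 came without AclyM-KO replicate 3, and there was 1 without Ctrl replicate 3 (Mdh2) and 1 without AclyM-KO replicate 2 (Idh3a, lower). With library totals the 2 were Idh3a and Mdh2. Deviations of same-numbered libraries had correlations of -0.0651, 0.0498 and -0.0314, within the -0.0758 to 0.111 of differently numbered ones. Such values cannot decide whether the replicate numbers pair libraries. No member passed both the adjusted p and the fold limit of 0.58 under any alternative run, including glmTreat. With a limit of 0.3 none passed in the main fit, but Acod1 did without AclyM-KO replicate 1 (log2 fold change 0.355, adjusted p = 0.0351).

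Estimates close to 0 changed sign. Idh3b was -0.011 to 0.077 on the log2 scale when each library was left out, with -0.003 without Ctrl replicate 3. Suclg1 was -0.029 to 0.061 when each library was left out, with -0.008 and -0.004 without Ctrl replicate 3 or AclyM-KO replicate 3, -0.009 with library totals in place of TMM and -0.008 with the covariate. Sdha ranged from 0.105 to 0.158 (adjusted p 0.0225 to 0.13) and Mdh2 from 0.160 to 0.201 (0.00861 to 0.0641). Idh3a passed in 4 of 16 alternatives, among them library totals (adjusted p = 0.0454) and no filter (0.0485), and Acod1 in 2. Without the filter, adjusted p-values of other genes also moved at nearly unchanged fold changes. That of Acly went from 5.22e-10 to 9.69e-114 and that of Cs from 0.247 to 0.442. The cause of these shifts was not tested. Acly, Pdk1, Pdk2, Pdp1, Pdp2, Pcx, Glud1, Gpt2 and Slc25a1 passed in all 16. Over all genes, 2996 had an adjusted p under 0.05, and 1974 without AclyM-KO replicate 2. No scaling moved the median log2 fold change of all genes farther from 0 than -0.0177.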
